A study of Mus musculus with 2 samples.

Results

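The Hox genes of the mouse lie in 4 clusters, Hoxa, Hoxb, Hoxc and Hoxd, and their members were taken by symbol from the protein-coding genes of GENCODE M21 on GRCm38. This gave 39 genes of 21755 protein-coding genes, with 11 in Hoxa on chromosome 6, 10 in Hoxb on chromosome 11, 9 in Hoxc on chromosome 15 and 9 in Hoxd on chromosome 2. A cluster was the stretch between its outermost Hox genes, and a window was the cluster with 1.5 Mb on each side. The 4 windows held 50 of the 7435 chromatin boundaries in the list.

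The boundaries come from in situ Hi-C, an assay that joins and sequences pairs of DNA fragments found near each other in intact nuclei. The cells, taken by flow sorting from adult MOR23-GFP mice of both sexes, were mature sensory neurons of the olfactory epithelium that had chosen Olfr16 (MOR23), an odorant receptor gene. The strain was not specified and no treatment was given. There were 2 biological replicates, of 28000 and 24400 cells, which form 1 group. The authors called the boundaries on both replicates combined, so the list holds no replicate value and no read depth, and no difference between animals can be tested. Every boundary spans 5 kb and carries a score by the authors' caller, which classed it as Strong above a score of 0.5 and as Weak below it. Expression was not measured, so the cell type could not be checked against marker genes and nothing here says whether a Hox gene was transcribed.

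Hox genes encode homeodomain transcription factors that give segments of the embryo their identity along the body axis. Their order on the chromosome matches their order of use. Genes of paralogue group 1, at the 3′ end of a cluster, act early and toward the head, and genes of group 13, at the 5′ end, act late and toward the tail. In mouse limb buds, the Hoxd cluster is known to lie between gene deserts with enhancers for different parts of the limb. Mature olfactory neurons derive from a placode of the head, in front of the region that Hox genes pattern. In what follows, the group 13 end and the group 1 end name the sides of each cluster, and Hoxc, which has no group 1 gene, ends with Hoxc4 on that side.

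Boundaries divided the 4 clusters in different ways. Hoxa carried a boundary at its group 1 end, Hoxd a boundary at its group 13 end, Hoxb a boundary between Hoxb13 and the other 9 genes, and Hoxc no boundary inside. These 3 boundaries amount to 6.10 per Mb of cluster (exact 95% interval 1.27 to 17.4, counting error only), where the whole list has 2.91 per Mb between the first and last boundary of each chromosome. With 3 boundaries in 492 kb, this interval includes the density of the whole list. Within Hoxb, Hoxc and Hoxd, no boundary lay between any of the genes of groups 1 to 9.

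The boundary in Hoxd is the only Strong boundary of these 3. It lies on chromosome 2 at positions 74665001 to 74670000, overlaps an exon of Hoxd13 and holds the start of that gene (74668310, + strand). Its score of 0.838 was at or above 69.2% of the list. Hoxd13 shapes the digits and the hindmost body axis. Evx2, an even-skipped homeobox gene 8.75 kb from the cluster, lay on the other side of this boundary from the remaining Hoxd genes.

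The promoter of Hoxd13 is shown because it is the promoter that this Strong boundary contains, with the CG pairs in capitals. It is the sequence of 250 bases before the RefSeq start on the + strand of GRCm38.p6, chr2:74667975-74668224.
Hoxd13 promoter: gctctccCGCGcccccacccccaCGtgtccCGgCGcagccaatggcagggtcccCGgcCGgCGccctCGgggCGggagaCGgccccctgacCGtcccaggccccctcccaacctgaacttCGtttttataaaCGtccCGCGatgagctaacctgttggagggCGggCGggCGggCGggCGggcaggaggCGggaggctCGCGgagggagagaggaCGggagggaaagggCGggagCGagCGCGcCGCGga
This stretch holds 31 CG pairs and has a GC content of 74.4%. Among the 27025 promoters of the RefSeq table, 4.93% hold as many CG pairs in the same 250 bases or more, the median is 6, and 91.7% hold at least 1; CG reads the same on both strands. The table matched 22 of the 39 Hox genes. Over the whole entry of the table (250 bases before and 50 after the start), these 22 had a median GC content of 56.8% and a median of 13.5 CG pairs. Over all promoters these were 52.7% and 7. The Hox medians use 1 entry per gene and leave out a second entry of Hoxa10 (21 CG pairs) and of Hoxd11 (25). From Hoxb and Hoxc only Hoxb1, Hoxb4, Hoxb8 and Hoxc4 were matched. Hoxa13 had the highest GC content of the 22, 81.0%, and Hoxd4 the lowest, 39.7%.

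CTCF is a DNA-binding protein that holds chromatin loops and insulates neighbouring domains. Matches to the core of its recognition sequence were searched on both strands. The stricter core reads CCA, any 2 bases, AGG, any base, GGC, and the looser core allows any base in place of the A of CCA, so that every match to the stricter core is also a match to the looser one. A match is a description of the letters and does not show that CTCF is bound. Around the Hoxd13 boundary there was no match to the stricter core within 10 kb, and the looser core matched at 9 places within 30 kb of the cluster. These are shown in order from the group 13 side, each with 9 bases on either side and the match in capitals, read 5′ to 3′ along the core, because their strand changes along the cluster. Coordinates are those of the match on GRCm38.
Evx2 exon, − strand, chr2:74655527-74655538: ctcctgctgCCGCTAGGGGGCgccccgggg
Hoxd12 exon, − strand, chr2:74677089-74677100: cttcagactCCTCAAGGAGGCatttttttt
intron of Gm28309, + strand, chr2:74690206-74690217: cccgggcttCCGCAAGGCGGCtcgccgcct
Hoxd10 exon, + strand, chr2:74694395-74694406: ggccaggatCCGAGAGGGGGCaccgagttc
between Hoxd9 and Hoxd8, + strand, chr2:74700861-74700872: gttgtaggcCCTAGAGGAGGCcgcggcgcc
intron of Hoxd3 and Hoxd4, + strand, chr2:74715921-74715932: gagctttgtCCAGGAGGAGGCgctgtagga
intron of Hoxd3 and Hoxd4, + strand, chr2:74716192-74716203: cctcggcgaCCCAGAGGGGGCgttatttcc
intron of Hoxd3, + strand, chr2:74739235-74739246: ttacccggaCCCTGAGGAGGCagctccagt
intron of Hoxd3, − strand, chr2:74740175-74740186: ggatcttatCCTGGAGGCGGCgacttttac
The matches in Evx2 and Hoxd12 read toward the group 13 side, the next 6 read toward the group 1 side, and the last reads toward the group 13 side. The match at 74715921 is the only match to the stricter core inside the cluster. Within 50 kb of the Hoxd13 boundary, 7 of 9 looser matches pointed away from it. Some of the 9 lie farther than 30 kb from the cluster and are not shown. At the boundaries inside Hoxb and Hoxa, 4 of 7 and 2 of 2 pointed away. Of the 24678 looser matches within 50 kb of any boundary, 53% did. Matches at the same boundary are not independent, and the counts are small. The antisense RNA Hoxd3os1, which has an exon over the match at 74715921, and the gene model Gm28309 were chosen after the matches were seen.

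In Hoxa the boundary lay at the opposite end. It is at positions 52155001 to 52160000 of chromosome 6, and lies 4.83 kb from the start of Hoxa2. The boundary is Weak with a score of 0.216, at or above 4.88% of the list, so that it is among the lowest-scored boundaries. Hotairm1, an antisense noncoding RNA, began inside it. Neither core matched within 10 kb of this boundary. The nearest match inside the cluster, in an intron of Hoxa3 and 29.6 kb away, points away from it and toward the group 13 side.
Hoxa match nearest to the boundary, + strand, chr6:52189608-52189619: gtatctcaaCCAAGAGGAGGCttggggtag

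In Hoxb the boundary lay at positions 96250001 to 96255000 of chromosome 11, in an exon of the noncoding RNA gene Gm53, which starts inside it. It is Weak, with a score of 0.491 just under the 0.5 that separates the classes, at or above 47.4% of the list. Hoxb13, a group 13 gene used in tail bud, prostate and skin, starts 55.7 kb from it on the one side, and Hoxb9 starts 16.5 kb from it on the other. Hoxb13 is thereby on the same side as Ttll6, a tubulin-modifying enzyme and the first other gene on the group 13 side, 28.9 kb beyond Hoxb13. The pseudogene Gm11539 starts 1.37 kb from the boundary. No match to the stricter core lay within 10 kb, and the looser core matched at 3 places, shown because they lie on both sides of the boundary.
Left of the boundary, − strand, chr11:96247935-96247946: cagaaattgCCCTGAGGAGGCtgaagagaa
Right of the boundary, in an intron of Gm53, + strand, chr11:96259234-96259245: agtgtgtctCCCACAGGAGGCccagaactc
Right of the boundary, in an exon of Gm53, − strand, chr11:96261753-96261764: cgcgaccgaCCTCTAGGCGGCgccctggcg
The match on the left and the nearer match on the right point away from the boundary, and the farther match on the right points toward it.

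The Hoxc cluster lay whole between a pair of Strong boundaries 400 kb apart. On the group 13 side the boundary is at positions 102755001 to 102760000 of chromosome 15, intergenic, with a score of 1.04 and 161 kb from Hoxc13. On the group 1 side it is at 103155001 to 103160000, overlaps an exon of Smug1, a DNA repair gene, and has a score of 0.943 at 118 kb from the cluster. No other protein-coding gene starts between these boundaries. Matches to the stricter core lay within 10 kb of both and are shown because these boundaries enclose all 9 Hoxc genes.
Left of the group 13 side boundary, − strand, chr15:102753561-102753572: agtggaaagCCACCAGGGGGCagaatcaag
Inside the group 13 side boundary, + strand, chr15:102757853-102757864: atatggtggCCAGAAGGGGGCatcagatct
Left of the group 1 side boundary, + strand, chr15:103150056-103150067: gtttaaaccCCAGCAGGAGGCtcctcactc
The pair at the group 13 side points apart, away from the middle of that boundary. The match at the group 1 side points toward its boundary, so that the match inside the first boundary and this match run in the same direction. Inside the Hoxc cluster the stricter core had no match and the looser core 2, against 2 and 6 in Hoxa, 4 and 9 in Hoxb, and 1 and 8 in Hoxd.

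**Figure D1:**
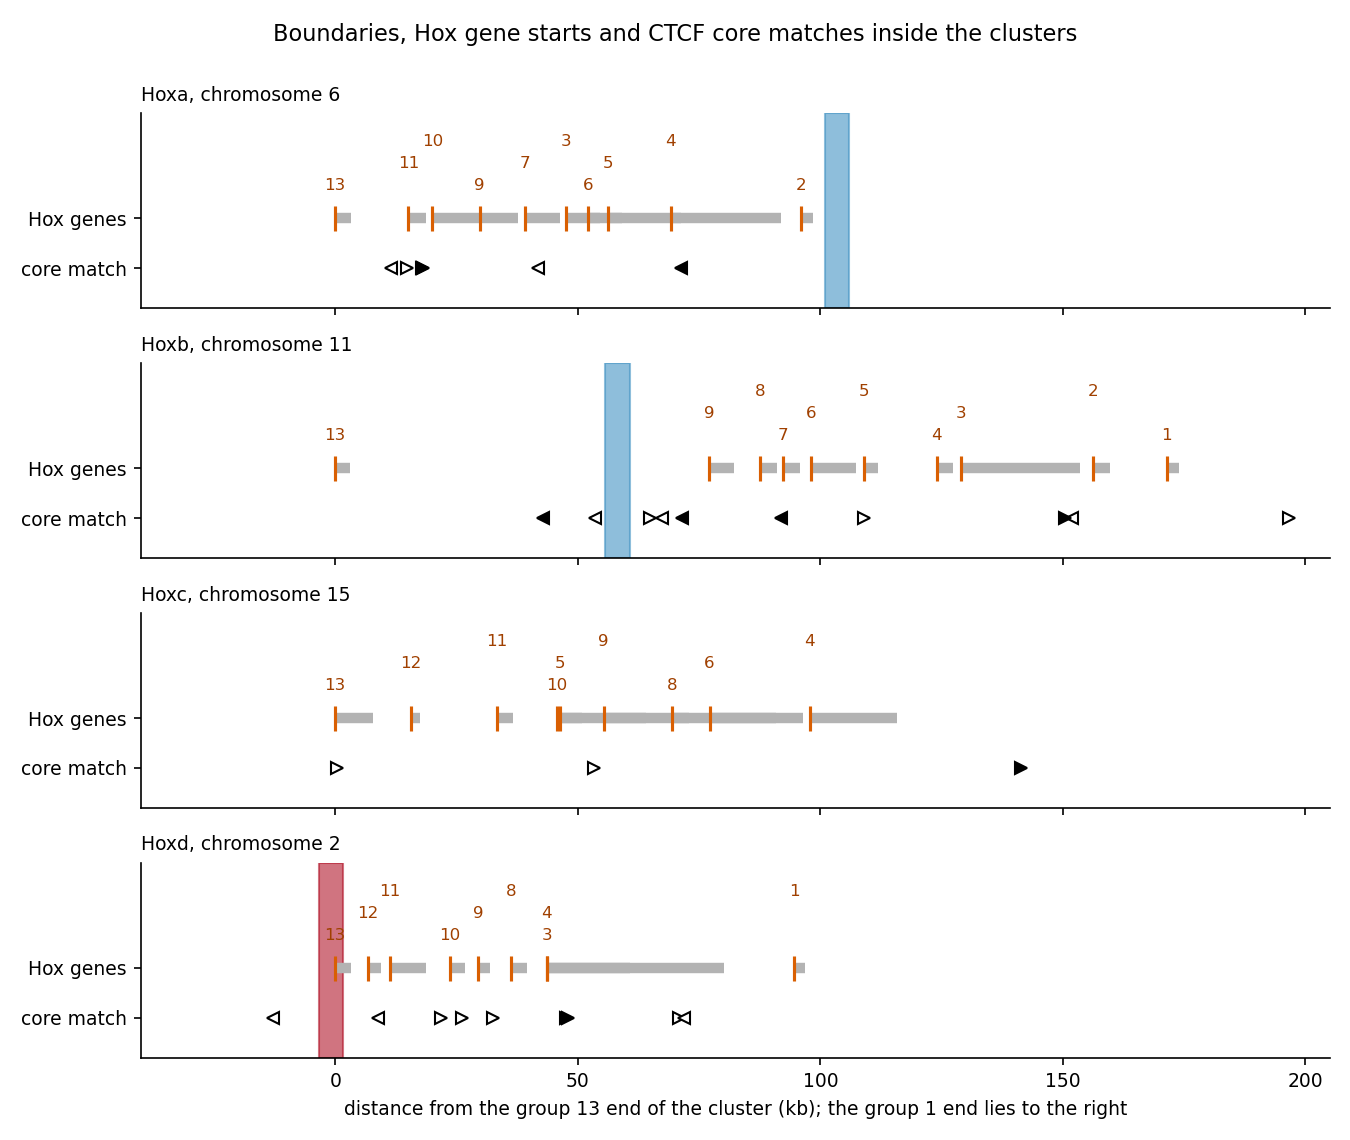
Close view of the 4 clusters, with the distance from the group 13 end in kb on the x axis. Orange ticks numbered by paralogue group are starts of the Hox genes described in the text, grey bars are gene bodies, triangles are CTCF core matches pointing along the core (filled for the stricter core), and shaded bands are boundaries (red for Strong, blue for Weak). A band lies beside Hoxa2, between Hoxb13 and Hoxb9, and at Hoxd13, and none lies in Hoxc.

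As a family, Hox genes had a share of starts near boundaries close to that of all protein-coding genes. Within 10 kb of a boundary were 5 of 39 starts, 12.8% (exact 95% interval 4.30 to 27.4%), beside 12.4% of all 21755 protein-coding starts. The chromosomes of the clusters had shares of 12% for chromosome 6, 14.4% for 11, 13.8% for 15 and 13.2% for 2. The 5 genes were neighbours at 2 boundaries. Among them were Hoxa2 at the Hoxa boundary, and Hoxd11, Hoxd12 and Hoxd13 at the Hoxd boundary. Starts inside a boundary, as at Hoxd13, made up 5.13% of Hox starts, beside 3.25% of all starts. Genes at the same boundary are not independent of each other. By Strong boundaries alone, the 3 Hoxd genes were near, 7.69% of Hox starts beside 7.88% of all starts. By the nearest of all annotated transcript starts of a gene, 5 of 39 Hox genes were near a boundary (12.8%), beside 16.6% of all protein-coding genes. Of the 8 cluster ends, 2 lay within 25 kb of a boundary (25.0%, beside 24.6% of all starts), and 1 of them, at Hoxd13, within 25 kb of a Strong boundary (12.5%, beside 15.9%). A cluster end is the outer edge of an outermost Hox gene and can be its 3′ end, so it is not always a gene start.

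The median distance from a Hox start to the nearest boundary was 55.7 kb (quartiles 31.7 and 106 kb), against 58.4 kb (25.6 and 108 kb) over all protein-coding starts. The clusters differed more from each other than this median shows. Medians were 53.3 kb in Hoxa, 52.0 kb in Hoxb, 177 kb in Hoxc and 27.7 kb in Hoxd. The ranges of Hoxc (136 to 194 kb) and of the other clusters (0 to 111 kb) did not overlap. The 9 Hoxc starts lie between the same pair of boundaries, so their distances are not independent of each other. All 9 Hoxc starts were farther from a boundary than most protein-coding starts: 82.8% of these were as near as Hoxc4 or nearer, and 90.5% as near as Hoxc11, the farthest.

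**Figure D2:**
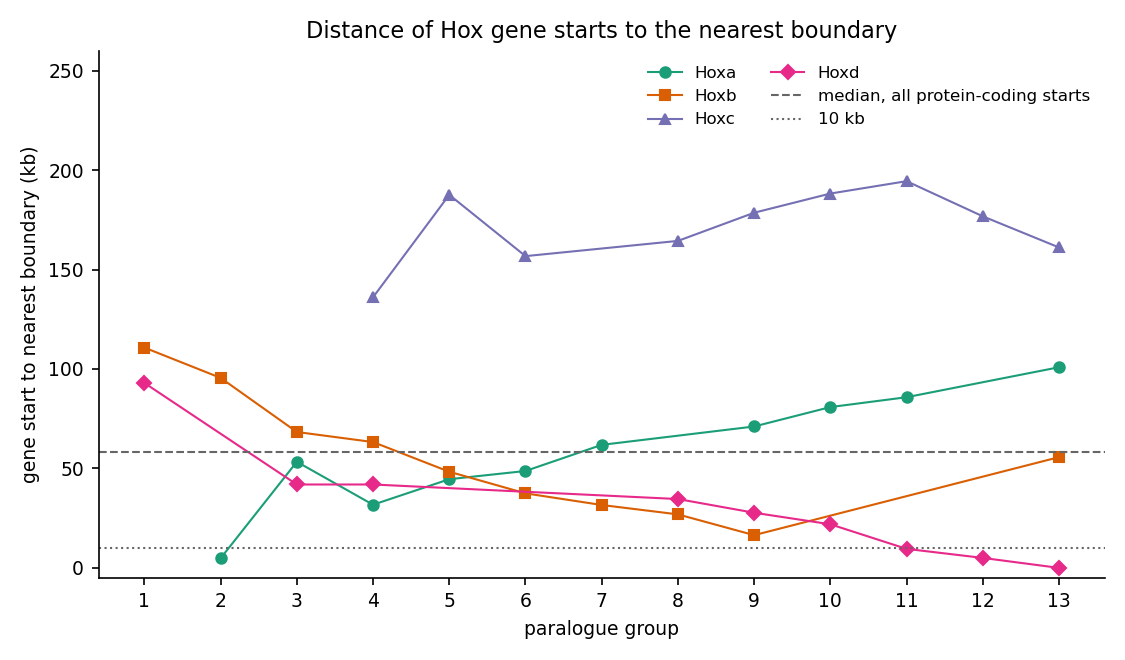
Distance in kb from the starts of the Hox genes described in the text to the nearest boundary (y axis) by paralogue group (x axis), with a line for each cluster. The dashed line is the median of all protein-coding starts, 58.4 kb, and the dotted line marks 10 kb. Distances grow toward group 13 in Hoxa and toward group 1 in Hoxd, and all Hoxc genes lie above the dashed line.

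Along the clusters, the distance followed the place of the boundary. In Hoxa it was 4.83 kb at Hoxa2, which acts in the hindbrain. It was 31.8 kb at Hoxa4, 44.6 kb at Hoxa5, a gene of lung development, and 48.7 kb at Hoxa6. Farther along were Hoxa7 at 61.9 kb and Hoxa9, a gene of blood stem cells, at 71.1 kb. At the far end, Hoxa10 and Hoxa11, which act in limb and uterus, were at 80.9 and 85.8 kb, and Hoxa13, a gene of digits and urogenital tract, was at 101 kb. Hoxa3 was out of this order at 53.3 kb, since its longest transcript begins next to Hoxa7. Its nearest transcript start was 23.9 kb from the boundary, between Hoxa2 and Hoxa4. The Hoxa genes from Hoxa2 to Hoxa13 all started on the same side of the boundary, and it lay downstream of each.

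Hoxd ran the other way. Hoxd13 was at 0, Hoxd12 at 5.01 kb and Hoxd11 at 9.56 kb. Hoxd10, Hoxd9 and Hoxd8 followed at 21.9, 27.7 and 34.6 kb. Hoxd4 and Hoxd3, whose longest models begin 2 bases apart, were both at 41.9 kb, and Hoxd1 was at 93.0 kb. The genes of groups 11 to 13, which pattern the distal limb, were thus the 3 Hoxd genes nearest to the Strong boundary. In all, 4 protein-coding starts lay within 10 kb of it. The fourth was that of Evx2, on the other side and nearer than Hoxd11.

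In Hoxb the distance was smallest at Hoxb9, 16.5 kb, and grew toward group 1. It was 26.9 kb at Hoxb8, 31.6 kb at Hoxb7, 37.5 kb at Hoxb6 and 48.3 kb at Hoxb5. Hoxb4, a gene of blood stem cells, was at 63.3 kb, Hoxb3 at 68.3 kb, Hoxb2 at 95.5 kb and Hoxb1, a gene of the facial motor neurons, at 111 kb. Within Hoxc, Hoxc13, a hair and nail gene, was 161 kb from the group 13 side boundary, Hoxc12 177 kb and Hoxc11 194 kb. The other 6, from Hoxc10 (188 kb) over Hoxc5 (188 kb), Hoxc9 (179 kb), Hoxc8 (164 kb) and Hoxc6 (157 kb) to Hoxc4 (136 kb), were nearer to the group 1 side boundary. The nearer boundary thus changed between the starts of Hoxc11 and Hoxc10. The start used for Hoxc5 is its outermost, next to that of Hoxc10. Its nearest transcript start was 141 kb from the boundary, between those of Hoxc6 (145 kb) and Hoxc4 (121 kb).

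Paralogues, the genes of the same number in different clusters, did not share a distance. Group 13 spanned 0 kb (Hoxd13), 55.7 kb (Hoxb13), 101 kb (Hoxa13) and 161 kb (Hoxc13), and in group 1 Hoxd1 was at 93.0 kb and Hoxb1 at 111 kb. Groups 2, 11 and 12 each had 1 gene within 10 kb, Hoxa2, Hoxd11 and Hoxd12. By gene start, the smallest spread was in group 3, with 41.9, 53.3 and 68.3 kb for Hoxd3, Hoxa3 and Hoxb3. This rests on the longest transcript of Hoxa3. By nearest transcript start Hoxa3 was at 23.9 kb, and group 3 spread more than group 7 (Hoxa7 57.5 kb, Hoxb7 31.6 kb).

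The intervals between adjacent boundaries give the stretches that hold the genes. All 11 Hoxa starts lay in an interval of 420 kb, longer than 76.6% of the 7415 intervals of the list, together with Evx1, the relative of Evx2 at this cluster, and the gene models Gm28308 and 5730596B20Rik. The 9 Hoxb genes other than Hoxb13 shared an interval of 490 kb (longer than 82.5%) with Skap1, an adaptor protein of T cells. Hoxb13 was in an interval of 230 kb (longer than 40.1%) with 6 other protein-coding starts. The 9 Hoxd starts lay in an interval of 265 kb, equal to the median of all intervals, with Mtx2, a gene of mitochondrial import, and the gene model Gm28230. The 3 gene models were named after the intervals were seen. A start inside a boundary was assigned to an interval by the midpoint of that boundary, which is finer than the 5 kb of a boundary can resolve. Among the starts placed in this way were Hoxd13, and Gip as 1 of the 6 beside Hoxb13. By Strong boundaries alone, the intervals were 985 kb for Hoxa, 720 kb for Hoxb, 400 kb for Hoxc and 915 kb for Hoxd, against a median of 400 kb over 3834 such intervals. On this scale and by the same midpoint rule, the Hox starts of each cluster lay in a single interval. The edge of the Hoxd interval is the boundary that holds the start of Hoxd13.

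**Figure D3:**
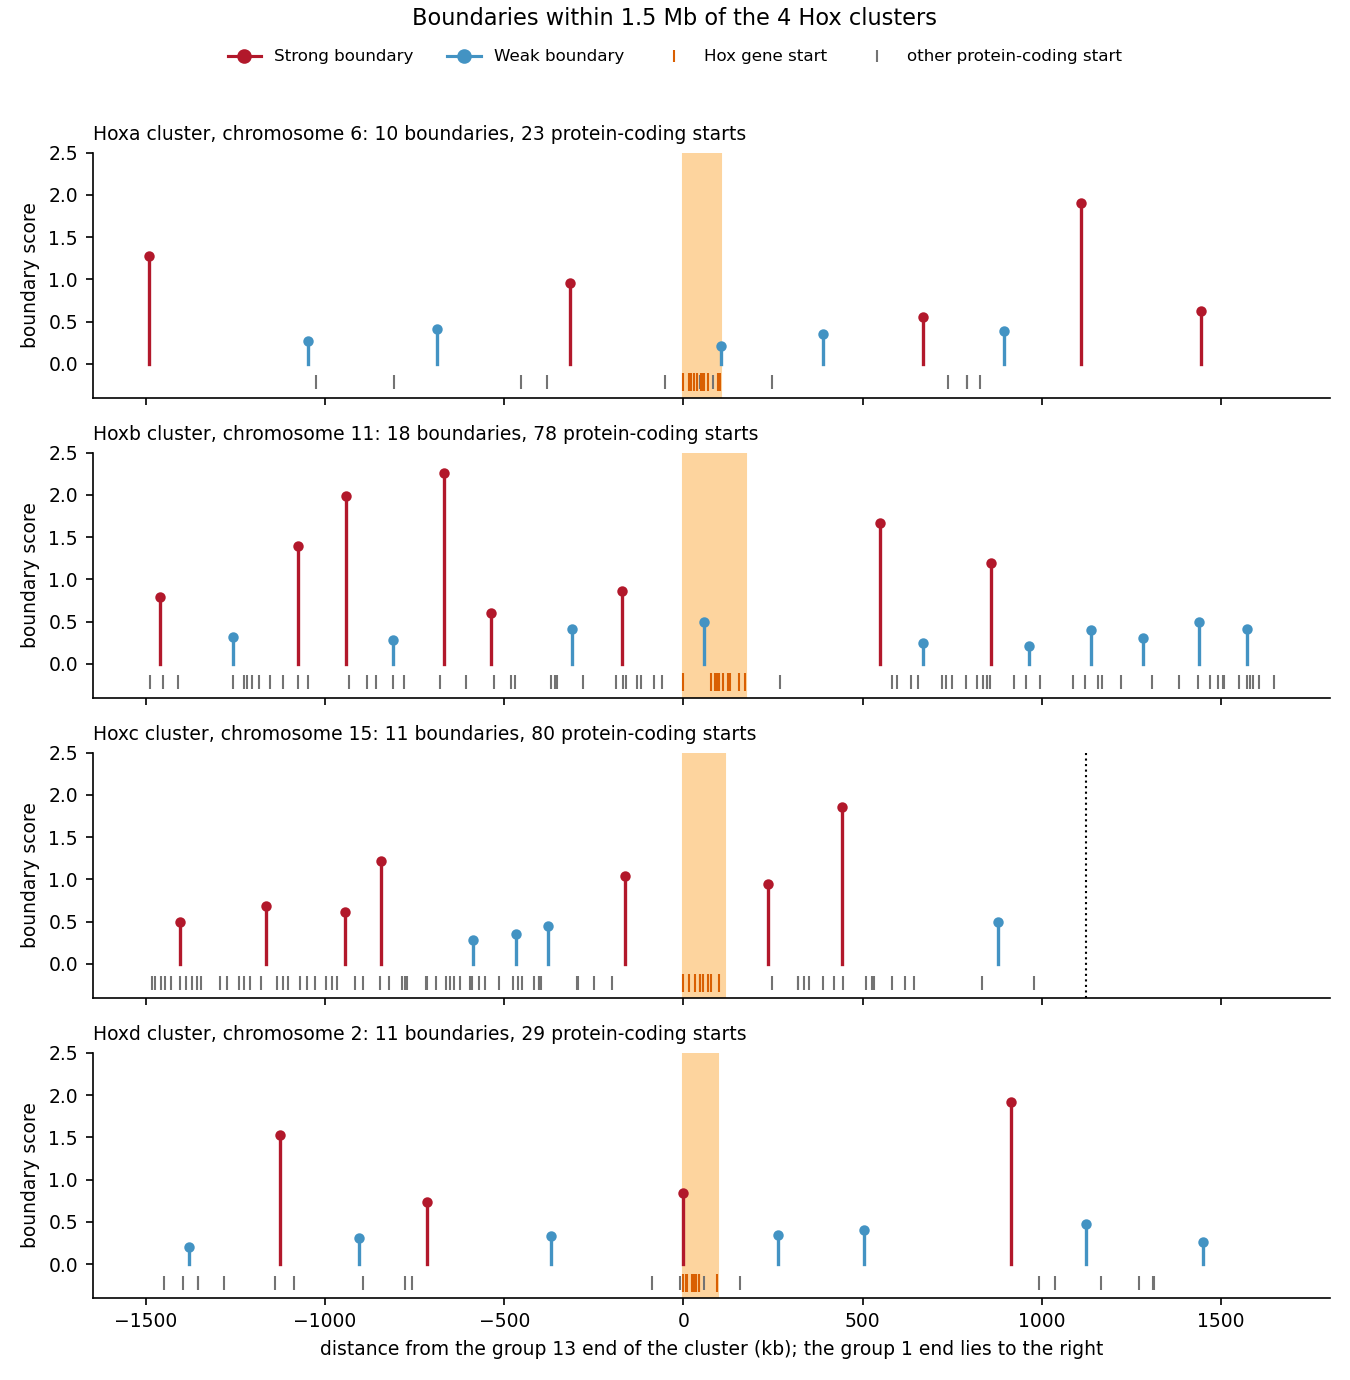
Boundary score (y axis) against distance from the group 13 end of the cluster in kb (x axis) for the 50 boundaries of the 4 windows, with red stems for Strong and blue stems for Weak boundaries. The shaded band is the cluster, orange and grey ticks are starts of Hox and other protein-coding genes, and the dotted line is the end of chromosome 15. Stems are closest together around Hoxb, and the Hoxa and Hoxd windows hold fewer genes than the Hoxb and Hoxc windows.

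The windows differed in gene density, with those of Hoxa and Hoxd near the average of the chromosomes and those of Hoxb and Hoxc gene-rich. The Hoxa and Hoxd windows had 7.41 and 9.36 protein-coding starts per Mb, and the Hoxb and Hoxc windows 24.6 and 30.5 per Mb, beside 8.26 per Mb over the whole length of the 20 chromosomes. Boundaries numbered 10 around Hoxa (3.22 per Mb), 18 around Hoxb (5.67 per Mb), 11 around Hoxc (4.19 per Mb) and 11 around Hoxd (3.55 per Mb). Together this is 4.17 boundaries per Mb (exact 95% interval 3.10 to 5.47, counting error only), against 2.91 over the list. The densities of the 4 whole chromosomes between their outer boundaries were 2.91 for chromosome 6, 3.45 for 11, 2.87 for 15 and 3.08 for 2. The 2 gene-rich windows had more boundaries per Mb than the other 2, although Hoxc had more genes and fewer boundaries per Mb than Hoxb. The part of gene density in the boundary density was not tested. The Hoxc window is cut short on the group 1 side, where chromosome 15 ends 1.01 Mb from the cluster.

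**Figure D4:**
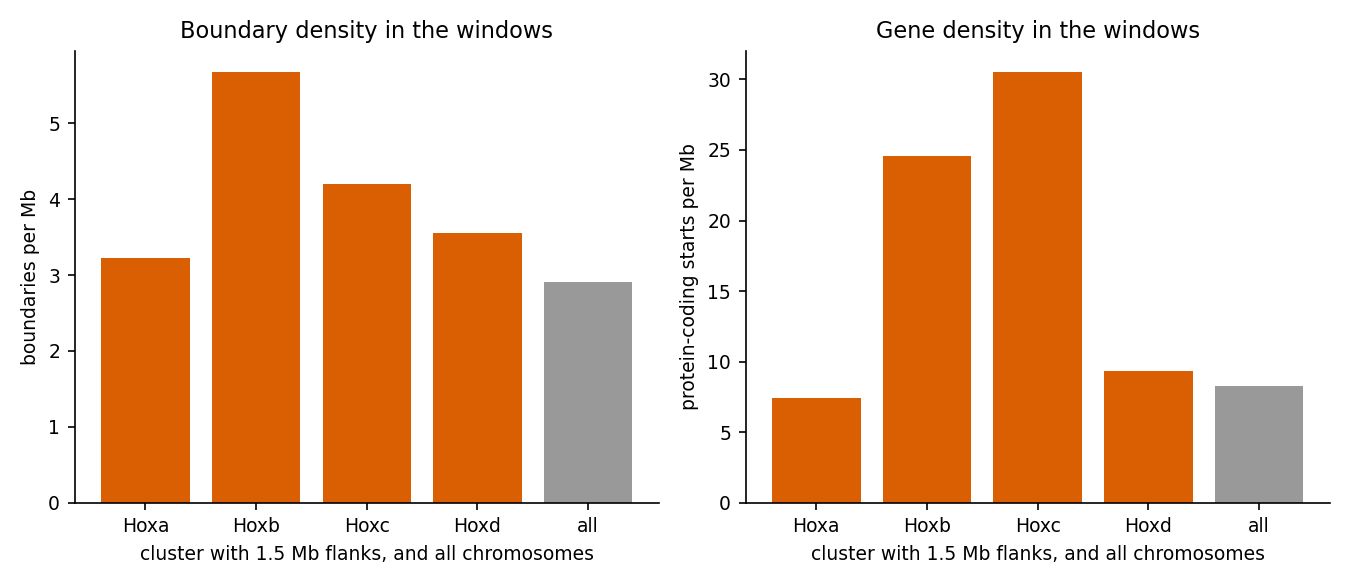
Boundaries per Mb (left) and protein-coding starts per Mb (right) in the 4 Hox windows, with bars from 0 and the value over all chromosomes in grey. All 4 windows have more boundaries per Mb than the grey bar of 2.91, and Hoxb and Hoxc have the most genes.

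Around Hoxd, both known deserts held boundaries. On the group 13 side, 609 kb without a protein-coding gene separate Atp5g3, which encodes a subunit of the mitochondrial ATP synthase, from Lnpk, a gene of the endoplasmic reticulum. This desert held 2 boundaries. The Strong one (73950001 to 73955000, score 0.739) lies 38.7 kb from the start of Atp5g3, and the Weak one (74295001 to 74300000, score 0.333) lies deep inside, 368 kb from the cluster. No boundary lay between it and the boundary at Hoxd13, so that the desert's near part, Lnpk, Evx2 and the upstream flank of Hoxd13 were in 1 interval.

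On the group 1 side, a desert of 781 kb lies between Mtx2 and Hnrnpa3, an RNA-binding protein gene, and held 3 boundaries. Weak boundaries at 74930001 to 74935000 (score 0.342) and 75170001 to 75175000 (score 0.397) came first, 165 and 405 kb from the cluster. The third is Strong (75580001 to 75585000) with a score of 1.92, at or above 95.4% of the list, and lies 74.3 kb before the start of Hnrnpa3. It is the highest-scored boundary of the Hoxd window and lies 815 kb from the cluster. The densities of 3.28 and 3.84 boundaries per Mb in these deserts are beside 3.55 in the Hoxd window as a whole.

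The gene-free stretches of Hoxa had no boundary on the group 13 side and 3 on the group 1 side. On the group 13 side, 228 kb between Evx1 and Hibadh, an enzyme of valine breakdown, held no boundary. The first boundary on that side lay 314 kb from the cluster, inside an intron of Hibadh (52575001 to 52580000, Strong, score 0.951). On the group 1 side, a Weak boundary (51870001 to 51875000, score 0.352) lay in an exon of Skap2, an adaptor protein and the first other gene there, 281 kb from the cluster. The first Strong boundary, at 51590001 to 51595000 with a score of 0.549, was 561 kb away. Beyond Nfe2l3, a transcription factor gene, 777 kb up to the window edge held no protein-coding gene and had 3 boundaries (3.86 per Mb), of which that at 51150001 to 51155000 had the highest score of the window, 1.90.

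Around Hoxb and Hoxc gene-free stretches were short. The longest on the group 13 side of Hoxb measured 154 kb, between Tmem92 and Col1a1, a collagen gene, with 1 boundary. That boundary only overlaps the end of the stretch and holds the start of Col1a1. On the group 1 side the longest was 96.3 kb, between Hoxb1 and Skap1, with none. Around Hoxc they were 199 kb between Calcoco1, an autophagy receptor gene, and Hoxc13, with 1 boundary, and 187 kb between Glycam1 and Mucl1, with none. The first boundaries outside Hoxb were both Strong. The one 169 kb from Hoxb13 (96020001 to 96025000, score 0.865) holds the start of Gip, a gut hormone gene. The one 372 kb from Hoxb1 (96740001 to 96745000, score 1.67) lies in an intron of Skap1, 32.6 kb from the start of Snx11, a membrane traffic gene.

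The highest scores around Hoxb belonged to the boundary at 95525001 to 95530000, with a score of 2.26, 10.4 kb from Nxph3, a neurexin ligand gene. The next, with 1.99, is at 95250001 to 95255000, 6.53 kb from Tac4, a neuropeptide gene. Around Hoxc they were 1.86 at 103360001 to 103365000, 1.76 kb from the start of Itga5, an integrin gene, and 1.22 at 102075001 to 102080000, 1.23 kb from that of Eif4b, a translation initiation gene. Around Hoxd the second highest, 1.53 at 73540001 to 73545000, lay 10.3 kb from Wipf1, an actin regulator gene. The other high boundary around Hoxa, 1.28 at 53750001 to 53755000, lay more than 50 kb from any protein-coding start.

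**Figure D5:**
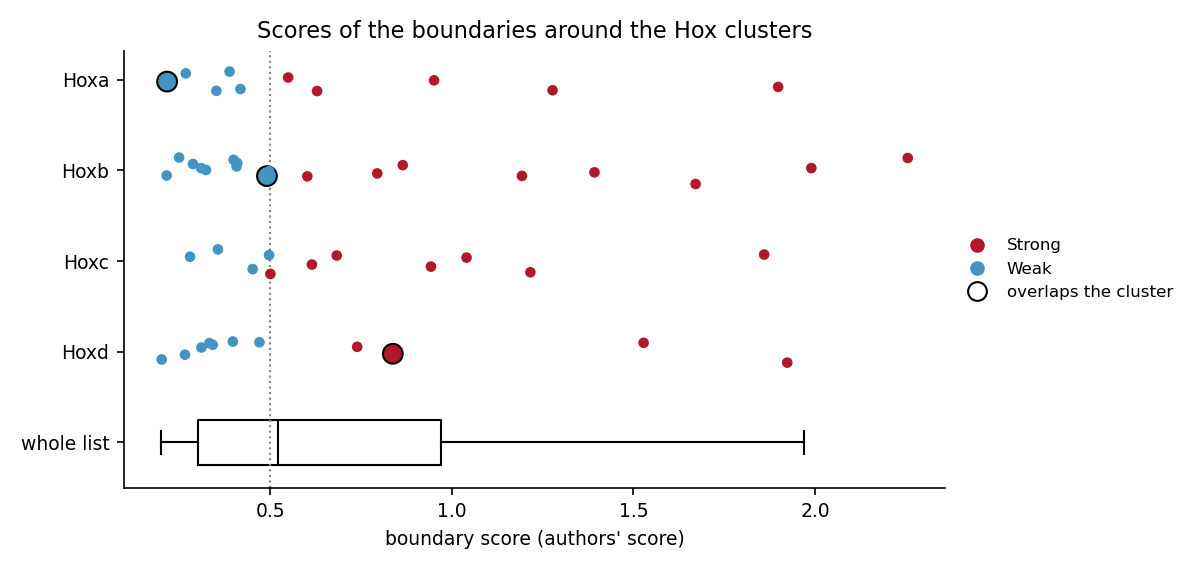
Scores by the authors' caller (x axis) of the 50 boundaries, by cluster (rows; vertical scatter within a row carries no value), with the box of the whole list below (quartiles, median and whiskers to 1.5 times the box). Large outlined points overlap a cluster, and the dotted line marks 0.5. In every window the points lie on both sides of 0.5. The highest is at 2.26, where the list reaches 4.38 (values beyond the whiskers are not drawn). The outlined points lie at 0.216, 0.491 and 0.838.

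The scores of the window boundaries had a median and quartiles near those of the list, although none came near its highest score (2.26 against 4.38). Strong boundaries made up 24 of 50 (48.0%, exact 95% interval 33.7 to 62.6%), beside 51.8% of the list, and the median score was 0.497 (quartiles 0.344 and 0.949), against 0.520 (0.301 and 0.969). By window, Strong boundaries were 5 of 10 around Hoxa, 8 of 18 around Hoxb, 7 of 11 around Hoxc and 4 of 11 around Hoxd. Scores over the 90th percentile of the list belonged to 7 of the 50. A score of at least 1 was found in 24.0% of window boundaries and 23.7% of the list.

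A protein-coding start lay within 10 kb of 19 of the 50 window boundaries (38.0%, exact 95% interval 24.7 to 52.8%), beside 27.8% of the list. The count was higher in the gene-rich windows. It was 1 of 10 around Hoxa and 1 of 11 around Hoxd, in both cases the boundary at the Hox cluster itself, and 11 of 18 around Hoxb and 6 of 11 around Hoxc. The stricter CTCF core matched within 10 kb of 22 boundaries (44.0%, exact 95% interval 30.0 to 58.7%), beside 28.7% of the list. It matched inside 10.0% of the window boundaries, beside 7.61% of the list, and the looser core within 10 kb of 68.0%, beside 52.2%. For the stricter core there were 2 such boundaries around Hoxa, 9 around Hoxb, 6 around Hoxc and 5 around Hoxd, and none of the 3 boundaries inside clusters was among them. By class, 12 of 24 Strong boundaries had a match, beside 34.9% in the list, and 10 of 26 Weak ones (38.5%), beside 22% in the list. The core itself was more frequent per Mb in the Hoxb window (24.6) and the Hoxc window (17.2) than over all chromosomes (8.93), and close to that in the windows of Hoxa (9.34) and Hoxd (10.0).

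Matches within 50 kb of a boundary pointed away from it in 68 of 109 cases in the 4 windows (62.4%), beside 56.3% of 9853 such matches of the list. The counts were 5 of 10 around Hoxa, 32 of 50 around Hoxb, 22 of 34 around Hoxc and 9 of 15 around Hoxd. Matches at the same boundary are not independent of each other. An example of paired matches apart from the Hoxc pair above is the highest-scored Hoxb boundary, which had 5 matches within 10 kb, all pointing away from it.

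Genes whose products work with or upon Hox genes had a share of starts near boundaries close to that of all protein-coding genes. Of 40 genes, 5 had a start within 10 kb of a boundary (12.5%, exact 95% interval 4.19 to 26.8%), beside 12.4% of all starts. Among 9 genes for TALE homeodomain proteins, which bind DNA with Hox proteins, this was Pbx3, which started inside a Strong boundary scored 0.554. Among 19 Polycomb genes, whose products keep Hox genes silent, these were Jarid2, inside a Strong boundary (0.812), Rnf2 at 4.05 kb (Strong, 0.851) and Ring1 at 5.32 kb (Strong, 0.727). Among 12 trithorax genes, whose products keep Hox genes active, Ash2l was at 2.69 kb from a Weak boundary (0.482). The median distance over the 40 genes was 46.2 kb, and the farthest was Ezh2, the methyltransferase of Polycomb repressive complex 2, at 269.7 kb (named here for its distance).

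Noncoding starts near boundaries lay in Hoxa and Hoxb. Of 43 gene models other than protein-coding that start inside a cluster, 8 started within 10 kb of a boundary (18.6%, exact 95% interval 8.39 to 33.4%), beside 8.41% of all 32088 such genes. Of the 8, 6 were at the Hoxa boundary and 2 at the Hoxb boundary. At Hoxa these included Hotairm1 at 0, Hoxaas2, an antisense RNA, at 5.67 kb and 4 short RNA models, Gm27867, Gm27861, Gm27868 and Gm27477, at 0 to 2.13 kb. In Hoxc and Hoxd none of 7 and 9 noncoding models did. At Hoxa, Gm27867, Gm27861 and Gm27868 lie within Hotairm1 on the same strand, and Gm27477 starts just past its end. Models at the same boundary are thus not independent of each other, although the exact interval treats them as if they were.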

How the data were processed

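In situ Hi-C with DpnII was run on 2 biological replicates of sorted olfactory sensory neurons. The series design text gives the boundary list as made from the contact matrix of both replicates combined, on GRCm38, which the submitters' processing notes also name. The deposited score of each boundary is the authors' own value. For the caller, its window, filters and depth, the sources used here give nothing, and contact matrices were not analysed here.

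Genes came from GENCODE M21, and sequence from the GRCm38.p6 reference and RefSeq promoters of the same assembly. Each boundary lay within its chromosome. Genes start at their 5′ end, distances run to the boundary interval, and within 10 kb counts as near. Boundaries count as in a window if they overlap it, and coordinates are 1-based. Intervals are exact binomial (Clopper-Pearson, 95%), for densities over 5 kb bins, and cover counting error only. Interval lengths run between boundary midpoints. Distances and motif search were tested on simulated data. Python 3.11.15, pandas 2.3.3, scipy 1.17.1 and pysam 0.24.0 were used.

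Members and lists were chosen with earlier results of these data known. No test was made, since the list has 1 group and no replicate values. Named are the Hox genes, Evx1 and Evx2, first neighbours, genes bordering the longest gene-free stretches, the nearest start (up to 50 kb) to boundaries in or next to clusters and to the 3 highest-scored of each window, listed regulators within 10 kb, and noncoding genes in clusters within 10 kb. Alternatives varied distances, flanks, class, gene start and motif. Results for 1 gene are not reported here.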

Additional observations from a re-analysis of the deposited data

How the results depend on the processing

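Of 20 alternatives over 7 results, 14 stayed within the 95% interval of the value reported, or within 1.5 times a count, and 6 did not. Many alternatives count a different quantity with a background of its own, and intervals from small counts are wide. The number that stayed therefore does not measure how robust the results are. The share of Hox starts near a boundary was 46.2% within 50 kb, beside 44% of all starts, and 17.9% within 25 kb, beside 24.6%. With the median start codon as the gene start, chosen after seeing the data, 4 of 39 were near (10.3%), beside 11.9% of all protein-coding genes. Any transcript start gave 12.8%, beside 16.6%. With Strong boundaries only, 1 boundary lay inside the clusters, and the windows had 2.00 boundaries per Mb, beside 1.51 over the list. CTCF core matches lay inside 10.0% of window boundaries (7.61% of the list) and looser matches within 10 kb of 68.0% (52.2%). A score of at least 1 gave a share of 24.0%. The 2 ends of clusters that lay within 25 kb of a boundary (25.0%) were also the 2 within 10 kb, beside 12.4% of all starts, and within 50 kb, beside 44%, so that their share is above the background at 10 kb and below it at 50 kb. These 6 differences follow from what each alternative counts. No paired analysis was possible because there is 1 group and the list pools both replicates, and for the same reason no replicate could be left out. The Hoxa boundary scores near the lowest score of the list and the Hoxb boundary near the class limit; with the depth unknown, the error of either score is unknown.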

Other observations

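The 4 clusters arose from duplications of a chromosome segment, and relatives of the same genes still flank them. The families below were chosen after the windows were seen, so the counts describe these windows only. On the group 1 side, a Nfe2-type transcription factor gene lies near each cluster: Nfe2l3 at 722.9 kb from Hoxa, Nfe2l1 at 462 kb from Hoxb, Nfe2 at 222 kb from Hoxc and Nfe2l2 at 939 kb from Hoxd. In all 4 cases exactly 1 Strong boundary lay between the cluster and the gene's start. The scores were 0.549, 1.67, 0.943 and 1.92 in the same order of clusters. The median interval between Strong boundaries of the list was 400 kb. The share of other genes at like distances with 1 Strong boundary between was not computed, so this count is not a trait of the family. With Weak boundaries outside the clusters included, the numbers between were 2, 1, 1 and 3. The same Strong boundaries separated the starts of the heterochromatin protein genes Cbx3, Cbx1 and Cbx5 from Hoxa, Hoxb and Hoxc. They also separated the starts of the RNA-binding protein genes Hnrnpa2b1, Hnrnpa1 and Hnrnpa3 from Hoxa, Hoxc and Hoxd. The starts of the sorting nexin genes Snx10 and Snx11 were likewise separated from Hoxa and Hoxb, although the boundary on the Hoxa side overlaps an exon of Snx10. Genes beyond the same boundary are not independent of each other, so these families add no further cases. Skap2 and Skap1, which lie closer in, at 143 and 96.3 kb, had no boundary outside the clusters between their start and Hoxa or Hoxb. The Weak boundary that overlaps Hoxa does lie between Skap2 and the Hoxa genes from Hoxa2 to Hoxa13.

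On the group 13 side the arrangement varied. Among the ATP synthase genes, Atp5g1 had no boundary between its start and Hoxb at 119 kb, whereas Atp5g2 at 248.8 kb from Hoxc and Atp5g3 at 757 kb from Hoxd each had 1 Strong boundary between. Likewise Calcoco2 had none toward Hoxb, at 82.4 kb, and Calcoco1 had the Strong boundary of score 1.04 toward Hoxc, at 199 kb. Genes with a boundary between lay farther from the cluster than those without in each of these families, and the part of distance was not tested.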
